A study of Mus musculus with 8 samples.

Results

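The genes described here are 48 genes of S phase and DNA replication, taken by symbol from the array's annotation, of which 47 had a probe. They were 47 of the 15096 named genes on the array, and their 50 probes were among 21779 probes tested. E2f2 was not analysed here. Each gene is given by its brightest probe unless stated. Mcm10, Gins2 and Dnmt1 had a second probe.

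DNA is copied once per cell cycle. In G1, the origin recognition complex, Cdc6 and Cdt1 load the Mcm2 to Mcm7 helicase onto origins, which licenses them. At the start of S phase, the Cdc7 and Cdk2 kinases switch the helicase on by recruiting Cdc45 and the GINS complex, and primase, polymerases, the sliding clamp and its loader then build the new strands. Many of these genes are transcribed by E2F factors, which the retinoblastoma proteins hold back in resting cells, and T cells deprived of growth factor generally leave the cycle in G1.

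The cells were CTL-EN, a mouse T cell line, made to express the human beta common chain of the GM-CSF receptor, either wild type or with a serine-to-glycine change (Ser585Gly). Cells of both kinds were held without factor for 12 h in RPMI at 0.5% serum, which is the 0 h state. The 12 h state followed 12 h of human GM-CSF at 50 ng/mL. The 4 RNAs were set against each other on 8 two-colour arrays, with 2 arrays of opposite dye orientation for each of 4 comparisons, which were 12 h over 0 h in wild type, 12 h over 0 h in Ser585Gly, and Ser585Gly over wild type at 0 h and at 12 h. In replicate 1 the 12 h or the Ser585Gly RNA carried Cy5, and in replicate 2 it carried Cy3. The labels name no separate cultures, extracts or clones, so the 2 arrays of a comparison were read as technical repeats, and p-values measure only the spread between hybridisations. Cells kept without GM-CSF to 12 h were not on any array, so GM-CSF and the time in culture cannot be told apart, and the change from 0 h to 12 h is called the response. Values are log2 ratios, in which 1 is a doubling, with the standard error (SE) of a limma fit over the 8 arrays.

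All 47 genes were brighter than 95% of empty wells, and 40 were also brighter than 95% of olfactory receptor probes, which serve as genes a T cell is not known to use. The 7 others were Orc2, Gins1, Tyms, Tk1, Uhrf1, E2f1 and E2f3. None had a spot near the top of the scanner range. Of 10 T cell markers the median brightness percentile was 90.5, against 30.8 for 4 B cell and 25.6 for 4 erythroid markers, with 45.7 for 4 mast cell, 54.2 for 5 myeloid and 61.4 for 5 fibroblast markers. Replicate 1 of Ser585Gly over wild type at 0 h stood apart from the other 7 arrays. Its log2 ratios had an SD of 0.54 over all probes, and the other 7 had 0.30 to 0.37. Counts and calls that rest on it are therefore also given without it.

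S phase genes were on balance higher after 12 h of GM-CSF in both populations. In wild type 8 of 47 genes rose and 0 fell (limma, Benjamini-Hochberg adjusted p under 0.05), or 17.0% higher, where 5.43% of all probes were called higher, 4.03% lower and 9.46% in either direction. In Ser585Gly 21 rose and 1 fell, or 44.7% higher, where 5.73% of all probes were called higher, 4.72% lower and 10.5% in either direction. The 8 genes of the wild type were Orc2, Cdc6, Mcm2, Cdc25a, Prim1, Rfc3, Rfc4 and Fen1, and all 8 also rose in Ser585Gly. The other 13 that rose in Ser585Gly were Mcm3, Mcm4, Mcm5, Mcm6, Cdc7, Cdc45, Gins1, Pola2, Pole2, Rfc5, Dut, Chaf1b and E2f3. Of these 13, 12 had a positive fitted value in wild type. Mcm6 was at -0.01 ± 0.16 there, with its 2 wild type arrays at 0.05 and 0.13. The median log2 ratio over the 47 genes was 0.21 in wild type and 0.35 in Ser585Gly, against -0.01 and 0.01 over all probes. Values above 0 were found for 36 genes in wild type and 38 in Ser585Gly. The direction was the same on single arrays, with 38 and 39 of 47 genes above 0 on the 2 wild type arrays and 39 and 35 on the 2 Ser585Gly arrays. RNA was taken from whole cultures, so more cells in S phase and more RNA per cell cannot be told apart.

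**Figure D1:**
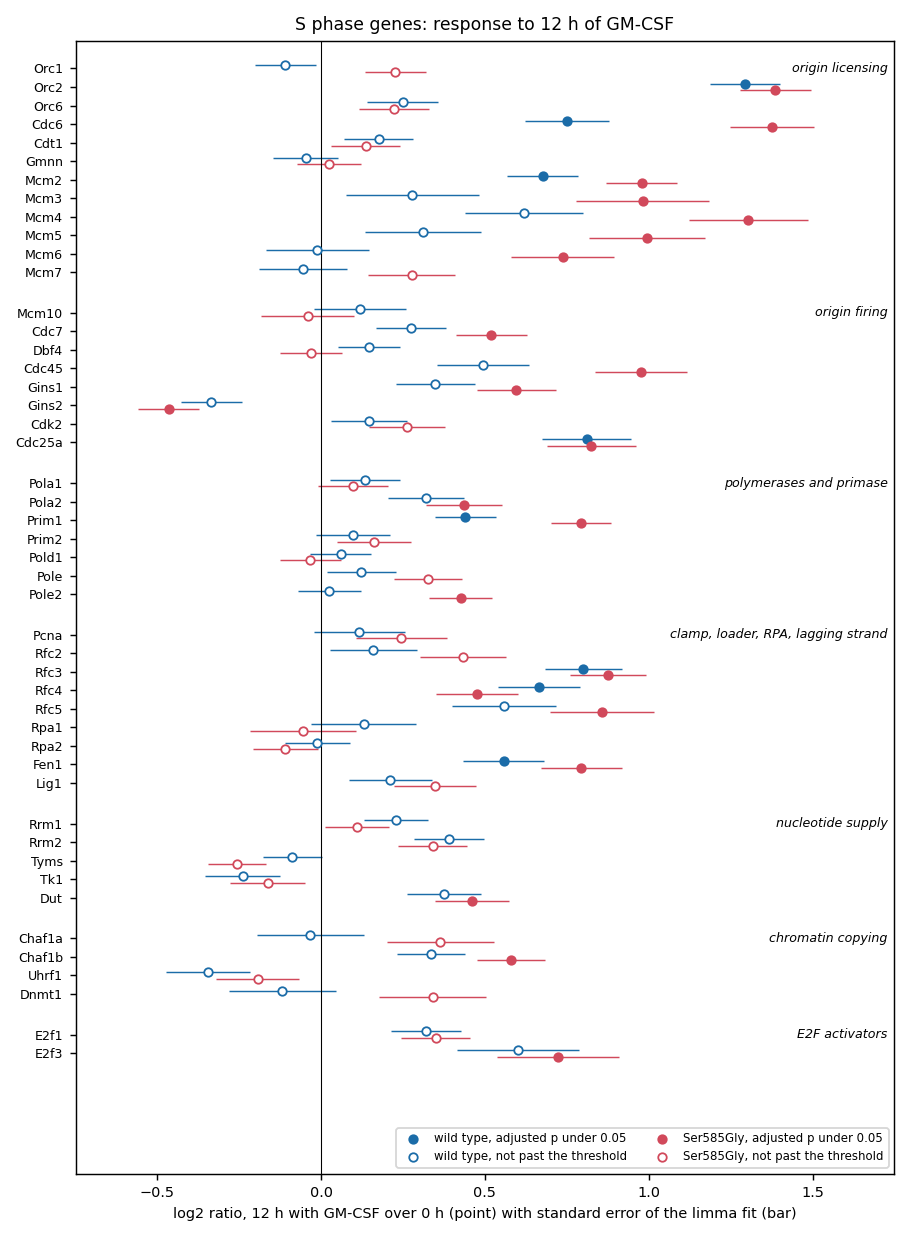
Each row is 1 of the 47 genes, grouped by role, with the log2 ratio of 12 h with GM-CSF over 0 h on the x axis, wild type in blue and Ser585Gly in red. Bars are standard errors of the fit over 8 arrays, and filled points passed an adjusted p of 0.05. The 21 filled red points to the right of 0 lie in all 7 roles, and the 8 filled blue ones lie in 4 of them.

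These counts depended on single arrays. Without the array that stood apart, 14 genes rose and 1 fell in wild type, and 23 rose and 1 fell in Ser585Gly, with 15.2% and 15.7% of all probes called. The 6 genes added in wild type were Mcm3, Mcm4, Mcm5, Cdc45, Pola2 and Rrm2, and those added in Ser585Gly were Rfc2 and E2f1. Without replicate 1 of 12 h over 0 h in wild type 2 genes rose there, and without replicate 2 of that comparison 1 gene did, with 2.80% and 1.89% of all probes called. In Ser585Gly 3 genes rose without replicate 1 of 12 h over 0 h and 10 without replicate 2, with 1.24% and 4.23% of all probes called. Orc2 kept its call in wild type with each array left out in turn, and Orc2, Cdc6 and Mcm2 kept theirs in Ser585Gly. The other called genes lost the call without at least 1 array. Their largest adjusted p lay between 0.052 for Prim1 and 0.39 for Rfc4 in Ser585Gly, and between 0.083 for Rfc3 and 0.18 for Prim1 in wild type. With 1 array left out, all called genes of both responses kept their direction.

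Many of these genes carry E2F-type letters close to their start site. The RefSeq promoter table (GRCm38.p6, 250 bases before to 50 after each start) held 41 of the 48 genes, and was searched on both strands for TTTCCCGC, TTTGGCGC, TTTCGCGC and TTTGCCGC, forms of the site that E2F factors bind. At least 1 of these stood in the window of 18 of the 41 genes, or 43.9%, against 2.6% of all 27025 genes in the table. The E-box CACGTG, the core letters of Myc and Max sites, stood in 7 of the 41, or 17.1%, against 8.09% of all genes. A match is a description of the letters and does not show that a factor binds. Windows of genes that rose, all upstream of the start, are shown first, with the matched letters in capitals and each read 5′ to 3′ along the gene's strand.
Mcm6, chr1:128359719-128359841, minus strand: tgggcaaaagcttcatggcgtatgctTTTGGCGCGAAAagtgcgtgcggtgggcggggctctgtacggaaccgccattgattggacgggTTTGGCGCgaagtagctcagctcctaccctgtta
Mcm5, chr8:75109330-75109393, plus strand: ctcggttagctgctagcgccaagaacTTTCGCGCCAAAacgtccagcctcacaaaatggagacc
Cdc6, chr11:98907987-98908046, plus strand: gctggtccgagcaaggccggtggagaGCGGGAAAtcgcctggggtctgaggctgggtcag
Cdc25a, chr9:109875486-109875545, plus strand: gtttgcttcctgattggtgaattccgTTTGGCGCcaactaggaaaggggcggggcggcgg
Rfc3, chr5:151651209-151651244, minus strand: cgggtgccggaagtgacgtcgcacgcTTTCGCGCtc
Orc1, chr4:108579401-108579453, plus strand: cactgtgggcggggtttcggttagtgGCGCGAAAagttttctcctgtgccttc
Mcm7, chr5:138172015-138172074, minus strand: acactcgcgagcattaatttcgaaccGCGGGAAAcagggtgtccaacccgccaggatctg
In Mcm6 the first capital run holds TTTGGCGC and, on the other strand, TTTCGCGC, which overlap, and in Mcm5 TTTCGCGC and TTTGGCGC overlap likewise. Orc1 and Mcm7 are shown because they hold such letters and did not pass the test in any comparison. Of the 17 measured genes with a match, 3 rose in wild type and 8 in Ser585Gly, with medians of 0.15 and 0.35. Of the 23 with a window and no match, 5 and 11 rose, with medians of 0.32 and 0.36. Whether genes with and without a match differed was not tested. Orc2, with the largest response in both populations, and Mcm2 were among the 23.

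Origin licensing held the largest response in each population, that of Orc2. Of its 12 genes, 3 rose in wild type and 7 in Ser585Gly, and none fell. Of all probes, 5.43% were called higher in wild type and 5.73% in Ser585Gly. The median was 0.26 in wild type, with a range from -0.11 to 1.29, and 0.86 in Ser585Gly, with a range from 0.02 to 1.39. Orc2, a subunit of the origin recognition complex, read 1.25 and 1.16 on the 2 wild type arrays and 1.55 and 1.40 on the 2 Ser585Gly arrays. It rose 2.45-fold in wild type (1.29 ± 0.11, SE; adjusted p = 0.000432, limma) and 2.61-fold in Ser585Gly (1.39 ± 0.11; adjusted p = 0.000355). Its probe was among the 7 at or below the 95th percentile of olfactory receptor probes. Cdc6, the ATPase that works with Cdt1 to load the helicase, read 0.84 and 0.69 in wild type and 1.39 and 1.33 in Ser585Gly. It rose 1.68-fold (0.75 ± 0.13; adjusted p = 0.0099) and 2.6-fold (1.38 ± 0.13; adjusted p = 0.00073), and its arrays in the 2 populations did not overlap.

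The helicase subunits did not respond alike. Mcm2 read 0.74 and 0.79 on the wild type arrays and 0.80 and 0.98 on the Ser585Gly arrays, and it rose by 0.68 ± 0.11 (adjusted p = 0.0077) and 0.98 ± 0.11 (adjusted p = 0.0016). Mcm4 read 0.48 and 0.86 in wild type, where it did not pass the test (0.62 ± 0.18; adjusted p = 0.071), and 1.06 and 1.44 in Ser585Gly, where it rose 2.47-fold (1.30 ± 0.18; adjusted p = 0.00375). Mcm3 read 0.45 and 0.33 in wild type and 0.82 and 0.92 in Ser585Gly. Mcm5 read 0.31 and 0.52, and 0.86 and 0.91, in the same order. In the fit Mcm3 and Mcm5 were at 0.28 ± 0.20 and 0.31 ± 0.18 in wild type. They rose by 0.98 ± 0.20 and 0.99 ± 0.18 in Ser585Gly. All 4 of these subunits were above 0 on all 4 response arrays. Mcm6 read 0.05 and 0.13 in wild type and 0.43 and 0.84 in Ser585Gly, where it rose by 0.74 ± 0.16 (adjusted p = 0.022). Mcm7 passed in neither, at -0.07 and 0.10 in wild type and -0.04 and 0.45 in Ser585Gly. Without the array that stood apart Mcm3, Mcm4 and Mcm5 also rose in wild type, at 0.43 ± 0.09, 0.74 ± 0.11 and 0.44 ± 0.09 (adjusted p = 0.024, 0.006 and 0.02). In Ser585Gly these 3 were then at 0.83, 1.19 and 0.87. The remaining 4 licensing genes passed in no comparison. They were Orc1 and Orc6, further origin recognition subunits, Cdt1, the loading partner of Cdc6, and its inhibitor geminin (Gmnn), and their responses lay between -0.11 and 0.25.

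**Figure D2:**
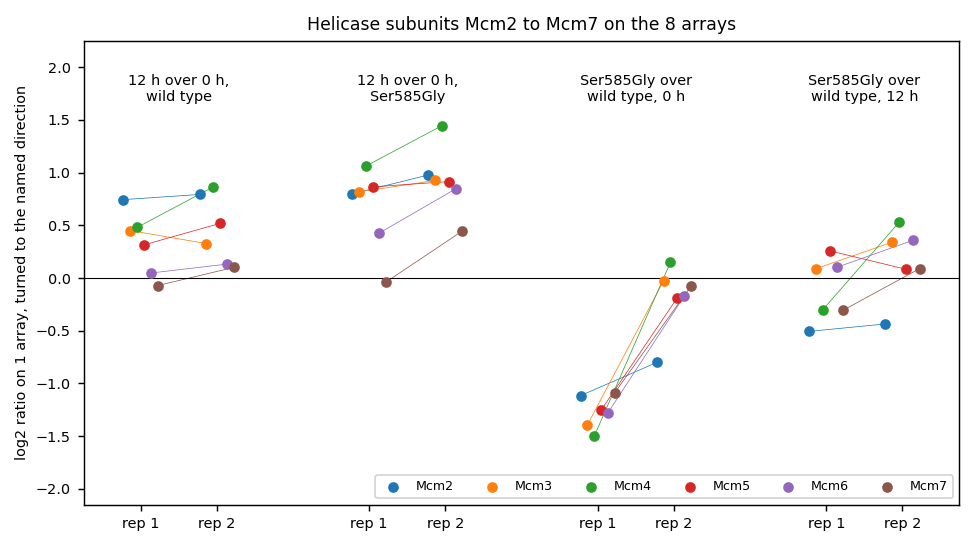
Log2 ratios of the 6 helicase subunits on each of the 8 arrays, turned so that positive is higher at 12 h (first 2 comparisons) or higher in Ser585Gly (last 2). Lines join the 2 dye orientations of a comparison. All 6 subunits lie at -1.09 or lower on replicate 1 of the 0 h comparison, where replicate 2 has 5 of them between -0.19 and 0.15.

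Among the 8 genes of origin firing, 1 rose in wild type and 4 rose and 1 fell in Ser585Gly. Of all probes, 5.43% were called higher in wild type, and 5.73% higher and 4.72% lower in Ser585Gly. Cdc25a, the phosphatase that activates Cdk2, read 0.62 and 0.93 in wild type and 1.02 and 0.71 in Ser585Gly, and the rise was near equal, at 0.81 ± 0.14 (adjusted p = 0.0091) and 0.82 ± 0.14 (adjusted p = 0.0075). Cdc45, the helicase cofactor, read 0.55 and 0.50 in wild type, below 0.90 and 0.99 in Ser585Gly. It rose by 0.98 ± 0.14 in Ser585Gly (adjusted p = 0.0043) and was at 0.49 ± 0.14 in wild type (adjusted p = 0.064, and 0.0078 without the array that stood apart). Gins1, a GINS subunit, and Cdc7, the kinase that phosphorylates the loaded helicase, rose by 0.60 ± 0.12 and 0.52 ± 0.11 in Ser585Gly and were at 0.35 ± 0.12 and 0.27 ± 0.11 in wild type. Dbf4, the activating subunit of Cdc7, and Cdk2 itself passed in no comparison.

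Gins2 and Mcm10, which also act on the helicase at firing, could not be settled because their probes disagreed. The brighter Gins2 probe fell by 0.47 ± 0.09 in Ser585Gly (adjusted p = 0.017) and was at -0.34 ± 0.09 in wild type, with values below 0 on all 4 response arrays. The dimmer one rose by 0.81 ± 0.10 in Ser585Gly (adjusted p = 0.0026) and by 0.52 ± 0.10 in wild type (adjusted p = 0.016), with values above 0 on all 4. The brighter Mcm10 probe was at 0.12 ± 0.14 and -0.04 ± 0.14, while the dimmer one rose by 0.80 ± 0.13 in wild type (adjusted p = 0.0093) and by 0.70 ± 0.13 in Ser585Gly (adjusted p = 0.014). The single gene counted as falling in Ser585Gly is thus a gene whose other probe rose. The 2 probes of Dnmt1 gave the same signs in the response of each population and in both mutation comparisons.

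The strand-building genes rose in part, where 5.43% of all probes were called higher in wild type and 5.73% in Ser585Gly. Of the 7 polymerase and primase genes, Prim1, the catalytic subunit of primase, read 0.45 and 0.48 in wild type and 0.80 and 0.74 in Ser585Gly, without overlap. It rose by 0.44 ± 0.09 (adjusted p = 0.022) and 0.79 ± 0.09 (adjusted p = 0.002). Pola2, the regulatory subunit of polymerase alpha, and Pole2, a subunit of polymerase epsilon, rose by 0.44 ± 0.12 and 0.43 ± 0.10 in Ser585Gly, close to the threshold (adjusted p = 0.049 and 0.027). The catalytic subunits Pola1, Pold1 and Pole, and Prim2, the regulatory subunit of primase, passed in no comparison, with responses between -0.03 and 0.33. The clamp loader Rfc, which places the clamp on primed DNA, rose in 2 of the 4 subunits Rfc2 to Rfc5 in wild type and 3 in Ser585Gly. Rfc3 read 0.72 and 0.89 in wild type and 1.10 and 0.64 in Ser585Gly (0.80 ± 0.12 and 0.88 ± 0.12; adjusted p = 0.0051 and 0.0033). Rfc4 rose by 0.66 ± 0.12 and 0.48 ± 0.12 (adjusted p = 0.014 and 0.047), and Rfc5 rose by 0.86 ± 0.16 in Ser585Gly (adjusted p = 0.0125) from arrays at 0.96 and 0.62. Fen1, the flap nuclease of Okazaki fragment joining, read 0.81 and 0.28 in wild type and 1.09 and 0.53 in Ser585Gly and rose by 0.56 ± 0.12 and 0.79 ± 0.12 (adjusted p = 0.0265 and 0.00585). Pcna, the clamp itself, Rfc2, which rose in Ser585Gly without the array that stood apart (0.35 ± 0.08; adjusted p = 0.025), the single-strand binding subunits Rpa1 and Rpa2, and DNA ligase 1 (Lig1) passed in no comparison of the 8 arrays. Pcna read 0.17 and 0.27 in wild type and 0.17 and 0.10 in Ser585Gly.

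Nucleotide supply, chromatin copying and the E2F factors had few calls. Of all probes, 5.43% were called higher in wild type and 5.73% in Ser585Gly. Of 5 nucleotide supply genes only Dut, which removes dUTP from the precursor pool, rose, in Ser585Gly (0.46 ± 0.11; adjusted p = 0.0375), from arrays at 0.66 and 0.15. Rrm2, the regulated subunit of ribonucleotide reductase, read 0.52 and 0.43 in wild type and 0.29 and 0.22 in Ser585Gly and did not pass (adjusted p = 0.056 and 0.084), although it did in wild type without the array that stood apart (0.43 ± 0.09; adjusted p = 0.017). Rrm1, its large subunit, and thymidine kinase 1 (Tk1) passed in no comparison. Tyms, thymidylate synthase, was at -0.09 ± 0.09 and -0.26 ± 0.09, below 0 on all 4 response arrays. Of 4 chromatin copying genes, Chaf1b, a subunit of the chromatin assembly factor CAF-1, rose by 0.58 ± 0.10 in Ser585Gly (adjusted p = 0.011). Chaf1a, another CAF-1 subunit, the maintenance methyltransferase Dnmt1 and its partner Uhrf1 passed in no comparison, and Uhrf1 was the dimmest of the 47, at brightness percentile 9.51. E2f3 rose by 0.72 ± 0.19 in Ser585Gly (adjusted p = 0.044) from arrays at 0.80 and 0.42, and was at 0.60 ± 0.19 in wild type from 0.65 and 0.77. E2f1 was at 0.32 ± 0.11 and 0.35 ± 0.11 and passed in neither, although it rose in Ser585Gly without the array that stood apart (0.38 ± 0.09; adjusted p = 0.033).

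Whether the mutation altered the response was asked by the interaction of mutation and time, the response in Ser585Gly minus that in wild type. No gene of the 47 passed (limma, smallest adjusted p = 0.41), where 0.0551% of all probes did, and 11 had an unadjusted p under 0.05, where 7.01% of all probes had. With the deposited ratios 1 gene passed as larger in Ser585Gly; in the other settings tried 0 did. The response was larger in Ser585Gly for 34 of 47 genes, with a median difference of 0.12, where 51.4% of all probes were larger in Ser585Gly. The largest differences were 0.75 ± 0.18 for Mcm6, 0.70 ± 0.24 for Mcm3, 0.68 ± 0.21 for Mcm4, 0.68 ± 0.20 for Mcm5 and 0.63 ± 0.15 for Cdc6. Without the array that stood apart these were 0.54, 0.41, 0.45, 0.44 and 0.49, and 36 genes were larger in Ser585Gly. From the 4 response arrays alone they were 0.55, 0.48, 0.58, 0.47 and 0.60, and 29 genes were larger in Ser585Gly, among them 10 of the 12 licensing genes. Both Ser585Gly arrays read above both wild type arrays for 15 genes, where 15.5% of all probes did, and below for 3 (Dbf4, Rrm2 and Tyms), where 16.9% did. The 15 were Orc1, Orc2, Cdc6, Gmnn, Mcm2, Mcm3, Mcm4, Mcm5, Mcm6, Cdc45, Prim1, Pole, Pole2, Dnmt1 and E2f1.

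**Figure D3:**
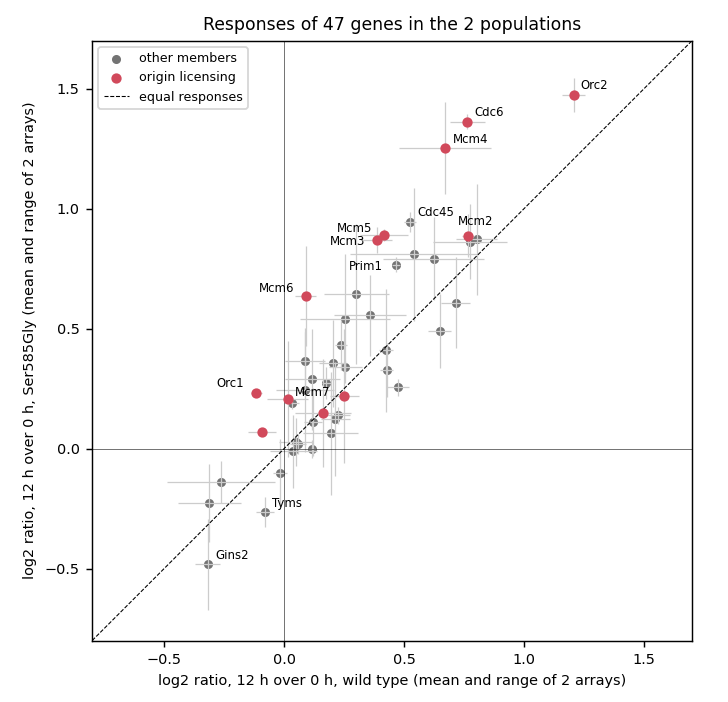
Each point is 1 of the 47 genes, with the mean response of the 2 wild type arrays on the x axis and of the 2 Ser585Gly arrays on the y axis, in log2 units, and bars that span the 2 arrays. Of the 47 genes 29 lie above the dashed line of equal responses, and the licensing genes in red include Cdc6, Mcm3, Mcm4, Mcm5 and Mcm6, which lie 0.47 to 0.60 above it.

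In factor-deprived cells the fitted values of most S phase genes lay below 0 for Ser585Gly over wild type, but few passed the test. At 0 h 1 of 47 was lower and 1 higher in Ser585Gly, where 2% of all probes were lower, 2.07% were higher and 4.07% were called in either direction. The median was -0.13 against 0.00 over all probes, and 12 of 47 were above 0. On the single arrays 21 and 13 of 47 were above 0. These 2 arrays agreed weakly, with a correlation of 0.14 over the 47 genes. The response arrays had 0.82 in wild type and 0.76 in Ser585Gly. The median was -0.12, with 11 above 0, without the array that stood apart, and -0.06 without replicate 2 of this comparison. Mcm2 read -1.12 and -0.80 on the 2 arrays and was 1.82-fold lower (-0.87 ± 0.11; adjusted p = 0.0065, limma). It was also lower without the array that stood apart (-0.74 ± 0.11; adjusted p = 0.031), and lost the call without replicate 2 of this comparison (adjusted p = 0.072). Tyms read 0.62 and 0.41 and was 1.44-fold higher (0.52 ± 0.09; adjusted p = 0.0197). Its call was lost without the array that stood apart (0.49 ± 0.10; adjusted p = 0.065) and without 4 others in turn (largest adjusted p = 0.10).

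The other helicase subunits at 0 h read far lower on one array than on the other. On replicate 1, the array that stood apart, Mcm3, Mcm4, Mcm5, Mcm6 and Mcm7 read -1.39, -1.5, -1.25, -1.28 and -1.09. On replicate 2 they read -0.03, 0.15, -0.19, -0.17 and -0.08. On replicate 1, 5.24% of all probes were at or below -1.09, and on replicate 2, 0.574% were. The square of comparisons gives a separate value for the same difference from the 6 other arrays, namely the wild type response plus the 12 h difference minus the Ser585Gly response. That value was -0.27 for Mcm3, -0.47 for Mcm4, -0.30 for Mcm5, -0.32 for Mcm6, -0.30 for Mcm7 and -0.59 for Mcm2. All 6 subunits were thus below 0 by this route, at sizes between those of the 2 direct arrays for Mcm3 to Mcm7. In the fit the 5 subunits were at -0.51 to -0.62 (adjusted p = 0.067 to 0.14), and without replicate 1 at -0.15 to -0.31 (adjusted p = 0.23 to 0.57). Cdc45 and Chaf1a showed a like gap, with -0.97 and -0.96 on replicate 1 and -0.08 and -0.06 on replicate 2. Cdc7 did not, at -0.41 and -0.43, with -0.51 by the indirect route, and was at -0.44 ± 0.11 in the fit (adjusted p = 0.060).

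After 12 h with GM-CSF few differences between the populations passed the test in these genes. The 2 arrays of this comparison agreed weakly, with a correlation of 0.29 over the 47 genes. Mcm2 was the only one of the 47 to pass, lower in Ser585Gly (-0.56 ± 0.11; adjusted p = 0.044), where 0.799% of all probes were lower, 0.918% were higher and 1.72% were called in either direction. It read -0.51 and -0.44, so that it was below 0 on all 4 mutation arrays. The call held without the array that stood apart (adjusted p = 0.025) and was lost without each of the 7 others (largest adjusted p = 0.30). The other 5 helicase subunits lay between -0.18 and 0.13, and the median over the 47 genes was 0.00 with 25 above 0. Tyms read 0.38 and 0.34 (0.35 ± 0.09; adjusted p = 0.12), so that it was above 0 on all 4 mutation arrays without passing at 12 h. Of the 47 genes 8 had an unadjusted p under 0.05, where 13.04% of all probes had.

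Set on a common scale with wild type at 0 h at 0, the fitted level of Mcm2 was -0.87 in Ser585Gly at 0 h, 0.11 in Ser585Gly at 12 h and 0.68 in wild type at 12 h. Cdc6 was at -0.36, 1.02 and 0.75 in the same order, and Mcm4 at -0.62, 0.68 and 0.62. In Mcm2 the order of the 12 h levels was therefore the reverse of that in Cdc6, whose 12 h difference did not pass in limma (0.27 ± 0.13, adjusted p = 0.44). These levels rest in part on the mutation arrays, whose repeats agreed weakly.

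Further genes of replication also had more calls in Ser585Gly than in wild type. Of 45 measured genes of a wider replication list, 3 rose and 1 fell in wild type and 17 rose and 1 fell in Ser585Gly, with medians of 0.23 and 0.34, where 9.46% and 10.5% of all probes were called. Without the array that stood apart these counts were 13 and 2 in wild type and 19 and 1 in Ser585Gly, where 15.2% and 15.7% of all probes were called. In the interaction 0 of the 45 passed, where 0.0551% of all probes did, and the median difference was 0.10. Among the largest changes past the threshold in Ser585Gly were those in Cdca7, a Myc and E2F target that recruits the chromatin remodeller Hells (1.62 ± 0.10), Dscc1, of an alternative clamp loader (1.10 ± 0.14), and Hells (0.99 ± 0.14). In wild type the 4 past the threshold were Cdca7 (0.95 ± 0.10), the helicase Mcm8 (0.67 ± 0.11), the fork protection subunit Tipin (0.55 ± 0.11) and the mismatch repair gene Msh6 (-0.69 ± 0.14). At 0 h 6 of the 45 were lower in Ser585Gly and 0 higher, where 2% of all probes were lower and 2.07% higher. The largest were Rfc1, the big subunit of the clamp loader (-1.12 ± 0.22), cyclin E2 (Ccne2, -0.88 ± 0.16), the nuclease Exo1 (-0.70 ± 0.14) and Hells (-0.65 ± 0.14). None of the 6 passed without the array that stood apart, where 1.49% of all probes were called in either direction. The median of the list was then -0.16, against -0.14 with that array.

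Genes of the other phases of the cycle were called in both directions. Of 36 G2 and mitosis genes 0 rose and 3 fell in wild type and 1 rose and 5 fell in Ser585Gly, with medians of -0.08 in both and the same 9.46% and 10.5% of all probes called. Without the array that stood apart 1 rose and 5 fell in wild type and 1 rose and 8 fell in Ser585Gly, with 15.2% and 15.7% of all probes called. Mki67, the proliferation antigen, fell by 0.88 ± 0.21 and the mitotic regulator Cdca3 by 0.66 ± 0.15 in wild type, and Cenpa, the centromeric histone, fell by 0.54 ± 0.13 in wild type and 0.66 ± 0.13 in Ser585Gly. Nusap1, a spindle protein, fell by 0.72 ± 0.16 in Ser585Gly. Of 22 G1 control genes 6 rose and 4 fell in wild type and 5 rose and 5 fell in Ser585Gly, or 7 and 5, and 6 and 7, without that array. They included the inhibitor Cdkn1b, at -1.29 ± 0.09 and -1.60 ± 0.09, the pocket protein Rbl2, at -1.09 ± 0.12 and -0.69 ± 0.12, the E2F partner Tfdp1, which rose by 1.04 ± 0.13 in Ser585Gly, and Skp2, which targets Cdkn1b for breakdown and rose by 0.49 ± 0.12 and 0.97 ± 0.12. Tfdp2, a further E2F partner, went the other way from Tfdp1 and fell by 0.58 ± 0.10 in wild type and 0.78 ± 0.10 in Ser585Gly. At 0 h 4 G1 control genes were higher and 1 lower in Ser585Gly, or 2 and 0 without the array that stood apart. Of all probes, 4.07% were called at 0 h in either direction, and 1.49% without that array. Cdkn2a, the locus of the inhibitors p16 and p19, was higher by 1.64 ± 0.11 at 0 h and 1.32 ± 0.11 at 12 h. It also rose with the 12 h of GM-CSF in wild type, by 0.48 ± 0.11. The difference between these lists and the S phase genes was not tested.

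**Figure D4:**
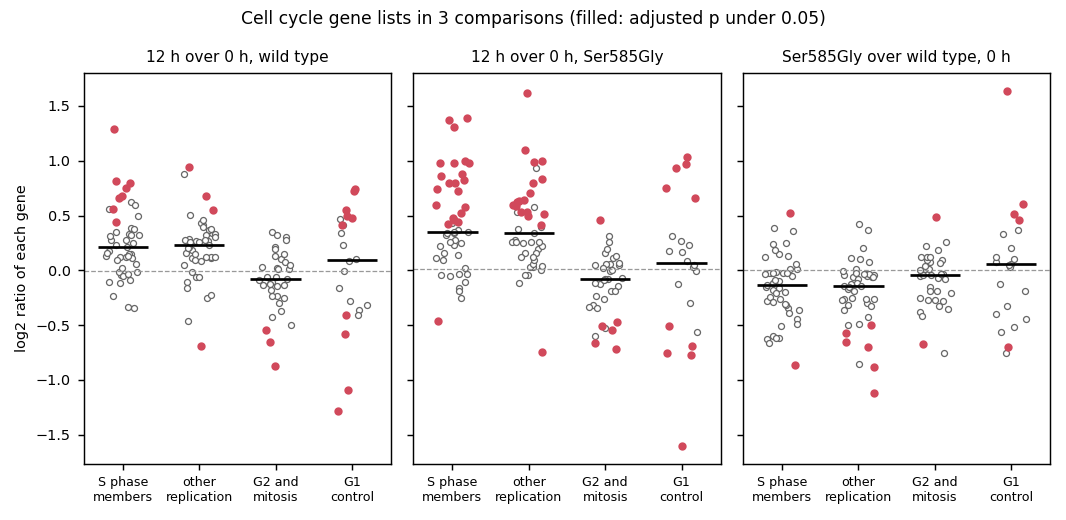
Log2 ratios of every measured gene of 4 lists in 3 comparisons, with 1 point per gene, the list median as a black bar, the median of all probes as a dashed line, and filled points for genes past an adjusted p of 0.05. The medians of the S phase members are 0.21, 0.35 and -0.13, those of the wider replication list 0.23, 0.34 and -0.14, and those of G2 and mitosis -0.08, -0.08 and -0.05.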

How the data were processed

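Each array had 23040 spots, with intensity values (foreground and local background per dye) as deposited by the authors. The authors' value table gives log2 ratios, Cy5 over Cy3. The submitters' processing notes name limma, with no version; further steps are not stated in the labels. Gene names rest on a 24-pin print order recovered from the spots, since the deposited names follow a 48-pin order. Empty wells lay at brightness percentile 1.34 (median) by the recovered names and 47.5 by the deposited names, and ribosomal protein probes at 98.7 and 33.3. For 90.3% of the 21779 probes used, the spot given by the deposited order matched their deposited values best. The recovered spot was then computed from that spot, so this share does not test the recovered order. A further 18 probes were left without a spot. Symbols were updated through RefSeq (16644 probes with 1 symbol, 137 with several, 4998 with none).

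Background was corrected by normexp (offset 50) and arrays were normalised by loess (span 0.3, control spots left out of the curve fit). limma 3.58.1 (R 4.3.3) fitted all 8 arrays jointly, the model holding the mutation, the time, the interaction of both, and a dye effect. The residual degrees of freedom were 4 and the prior ones 4.36. P-values are two-sided, with Benjamini-Hochberg adjustment over the 21779 probes and a threshold of 0.05. The fit was tested on simulated data. Alternatives covered the source of values, background correction, normalisation, scaling, dye-swap handling, prior, dim probes, probe choice, name order and each array left out. Named genes are all members past the threshold in a comparison, on the brightest probe, and those that no comparison called; of other lists, genes among the 4 largest past it, of which 1 is not reported here. The comparison with olfactory receptor probes was chosen after seeing the data. Members and lists were chosen with earlier results of these data known. Median foreground intensity ranged over the arrays from 631 to 946 (Cy5) and from 795 to 1105 (Cy3); the number of arrays limits the precision.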

Additional observations from a re-analysis of the deposited data

Results flagged for a closer look

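In 8 genes every array of one comparison lay on the other side of 0 from every array of the matching comparison, which is 8 of 47 where 12.3% of all probes did so. Such opposite signs rest on 2 arrays a side, the difference itself did not pass in limma, and no p given here shows that the responses differ. For the response to GM-CSF they were found in Orc1, with -0.09 and -0.14 in wild type and 0.24 and 0.22 in Ser585Gly (interaction 0.34 ± 0.11, adjusted p = 0.59), and in Gmnn, with -0.03 and -0.15 against 0.06 and 0.07 (interaction 0.071 ± 0.11, adjusted p = 0.88). For Ser585Gly over wild type they were found in 6 genes, below 0 at 0 h and above 0 at 12 h. Mcm6 had an interaction of 0.75, Mcm3 0.70, Mcm5 0.68, Cdc6 0.63, Pole2 0.40 and Chaf1a 0.40 (adjusted p = 0.41 to 0.74). The 0 h value nearer to 0 was -0.03 in Mcm3, -0.06 in Chaf1a and -0.01 in Pole2.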

How the results depend on the processing

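Counts of members called moved with the processing, as did the share of all probes called (9.46% in wild type, 10.5% in Ser585Gly, 4.07% at 0 h and 1.72% at 12 h in the reported fit), while directions seldom did: of 627 values of called genes under an alternative, 505 kept their direction and call, 121 lost the call and 1 reversed. Gins2 in Ser585Gly was at 0.17 (adjusted p = 0.31, limma) as the mean of its disagreeing probes. Leaving out 1 array gave 1 to 14 higher and 0 to 1 lower in wild type, 3 to 23 and 0 to 1 in Ser585Gly, 0 to 1 and 0 to 1 for the mutation at 0 h, and 0 to 0 and 0 to 1 at 12 h. The shares of all probes called were 1.89% to 15.2%, 1.24% to 15.7%, 0.505% to 2.92% and 0.312% to 2.88% in that order. With the deposited log2 ratios 19 members were higher and 1 lower in wild type, 6 lower at 0 h, 6 higher and 2 lower at 12 h, and 1 larger in the interaction (all probes 19.3%, 11.8% and 10.2% in wild type, at 0 h and at 12 h). Print-tip loess gave 17 and 1 in wild type, 2 higher and 5 lower at 0 h, and 3 higher at 12 h (all probes 18.7%, 9.37% and 4.56%). The comparison as a random block (correlation -0.33) gave 18 and 2 in wild type, 2 lower in Ser585Gly, 3 higher and 11 lower at 0 h, and 3 higher at 12 h (all probes 19.2%, 19.8%, 15.5% and 5.20%). With comparisons from their own arrays 5 were higher in wild type, 11 higher and 0 lower in Ser585Gly, 0 higher at 0 h and 0 lower at 12 h (all probes 4.06%, 5.27%, 1.04% and 0.73%). Averaged dye-swap pairs, with 1 value per comparison, kept 6 of the 8 rises in wild type, where Mcm4 was added (all probes 4.91%). They kept 16 of the 21 rises in Ser585Gly. They gave 0 lower in Ser585Gly, 0 higher at 0 h and 0 lower at 12 h (all probes 6.17%, 1.27% and 0.712%). Median centring gave 0 lower in Ser585Gly and at 12 h (all probes 8.27% and 1.28%). Among all probes called in Ser585Gly the share higher was then 65.0%, against 54.9%. The mean over probes gave 0 lower in Ser585Gly (all probes 10.7%), and scaling 3 lower at 0 h (all probes 4.35%). A trended prior gave 1 lower in wild type and 6 lower at 0 h (all probes 11.1% and 5.87%). In the deposited order of names 1 was higher and 1 lower in wild type, 2 and 4 in Ser585Gly, 0 and 0 at 0 h, and 0 lower at 12 h (all probes 9.42%, 10.5%, 4.15% and 1.64%). No background correction and leaving out dim probes moved no count by over 1.5 times. The causes were not tested. No paired analysis was possible because the replicate numbers are dye orientations, which the fit already holds as a term.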
